A study of Drosophila melanogaster with 5 samples.

Results

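Obp44a, Obp99b, Lsp2, Fbp1 and Apoltp encode proteins that are known as products of the fat body or as carriers in body fluids, and here they were measured in RNA of dissected salivary glands of Drosophila melanogaster after puparium formation. They were found as the probe sets whose only annotated gene symbol is 1 of these 5 names, which gave 5 probe sets, 1 for each gene, among 18952 on the array, or 5 of 11982 genes that have a probe set of their own. The genes were chosen by their measured intensities in this comparison, lower in the Fkh-labelled arrays than in the w1118 arrays. That difference is therefore described without a test and supports nothing by itself. The comparison has 3 arrays labelled as glands carrying P{hs-Fkh111}, in which a heat-shock promoter drives the forkhead factor gene fkh, and 2 arrays of w1118 glands, from a common laboratory strain with white eyes, written w1118(3) in the titles, where the 3 is not explained. Both groups were kept at 25 °C and received the same heat shock, 37 °C for 30 min, 9.5 h past puparium formation; the glands were taken out at 14 h. A heat-shock promoter acts in the whole animal, so tissue around the glands would carry an active transgene as well. The design text calls the arrays of each group biological replicates, and neither it nor the labels say how many animals were pooled for each.

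The fat body is the insect counterpart of liver and adipose tissue. It surrounds the larval organs, stores lipid and glycogen, and secretes most proteins of the haemolymph, among them the hexamerin storage proteins that late larvae build up and take back into the fat body before metamorphosis. Lipids travel in the haemolymph on lipophorin, which a lipid transfer particle loads at the gut. Odorant-binding proteins are small soluble carriers of hydrophobic molecules, first described in the antenna and also made in other tissues.

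The arrays were compared first as a whole. Their median intensities lay between 44.5 and 49.3, and their maxima between 15488 and 16327. Fkh-labelled arrays 1 and 2 were the closest pair, with a standard deviation of 0.28 of their log2 difference over probe sets, against 0.45 for either with array 3, 0.39 between the w1118 arrays and 1.16 to 1.21 across groups. Controls of RNA and labelling differed between the groups in part: the actin control probe sets had a 3' over 5' signal ratio of 4.94, 4.30 and 3.37 in the Fkh-labelled arrays, against 2.47 and 2.54 in the w1118 arrays. That of eIF4a was 2.35, 1.81 and 1.68 in the Fkh-labelled arrays, against 1.53 and 1.55 in the w1118 arrays, and that of Gapdh overlapped, at 1.11 to 1.56 in the Fkh-labelled arrays, against 1.14 and 1.16 in the w1118 arrays. The bioB controls set array 3 apart from the other Fkh-labelled arrays. Probe set bioB-5 had 335, 369 and 1009 in the Fkh-labelled arrays, against 769 and 791 in the w1118 arrays. Probe set bioB-M had 434, 455 and 746 in the Fkh-labelled arrays, against 700 and 681 in the w1118 arrays. What part these differences had in any value below, those of array 3 included, was not tested. The probe set of fkh itself went against the label, with intensities of 41.5, 47.0 and 58.3 in the Fkh-labelled arrays, against 130 and 120 in the w1118 arrays (limma log2 difference -1.13, SE 0.17, adjusted p = 0.0026). Where this probe set lies relative to the fkh sequence of the transgene is not known here, so it may not test the label. The values of fkh nearer the heat shock were not measured, and the groups are taken as the titles give them. Of 20 genes of the salivary gland itself 19 passed the filter on low values, and 3 had a mean under 100 in both groups. The brightest, the secreted-protein genes Eig71Ea, Eig71Ed and Eig71Ef, lay between 12198 and 15875 on all 5 arrays, whereas the new glue gene ng4 averaged 5730.2 in the Fkh-labelled arrays and 35.5 in the w1118 arrays. The Eig71E values came near the top of the arrays' range, where a difference is compressed. The same holds below for Idgf3 and for the w1118 values of Obp99d.

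The genes stand below in the order of odorant-binding proteins, storage protein, uptake receptor and lipid carrier. Obp44a, whose product is known to bind fatty acids in glia, had intensities of 1806, 2029.9 and 1275 in the Fkh-labelled arrays, against 7013 and 5954 in the w1118 arrays. The lowest w1118 value was well above the highest Fkh-labelled one, and array 3 was the lowest. The means were 1704 ± 388 (SD, n = 3) in the Fkh-labelled arrays and 6483 ± 749 (SD, n = 2) in the w1118 arrays, a ratio of 0.263.

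Obp99b, another member of the family, which is expressed in fat body, had 5689.5, 6423 and 2818 in the Fkh-labelled arrays, against 13094 and 13220.3 in the w1118 arrays. Its Fkh-labelled arrays did not lie together: array 3 was the lowest, at -1.10 from the mean of the other 2 on the log2 scale. The means were 4977 ± 1905 (SD, n = 3) in the Fkh-labelled arrays and 13157 ± 89.6 (SD, n = 2) in the w1118 arrays, a ratio of 0.378. The w1118 values came near the top of the arrays' range, where a difference is compressed.

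Lsp2 encodes larval serum protein 2, a hexamerin that the larval fat body secretes in large amounts. Its intensities were 4276.5, 4145 and 4723 in the Fkh-labelled arrays, against 6262 and 6487 in the w1118 arrays. The groups were apart, yet by little. The means were 4382 ± 303 (SD, n = 3) in the Fkh-labelled arrays and 6374 ± 159 (SD, n = 2) in the w1118 arrays, a ratio of 0.687, and here array 3 was the brightest of its group.

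Fbp1 encodes a fat body membrane protein that takes larval serum protein 1 back up from the haemolymph, and its gene is a known target of ecdysone. It had 2015, 2001 and 1827 in the Fkh-labelled arrays, against 3193 and 4427 in the w1118 arrays. The Fkh-labelled arrays lay close together and the w1118 arrays did not. The means were 1948 ± 105 (SD, n = 3) in the Fkh-labelled arrays and 3810.1 ± 872 (SD, n = 2) in the w1118 arrays, a ratio of 0.511.

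Apoltp encodes the apolipoprotein of the lipid transfer particle. Its probe set was dim, with 38.1, 36.6 and 37.5 in the Fkh-labelled arrays, against 107 and 80.8 in the w1118 arrays. The Fkh-labelled values were under their arrays' medians and the w1118 values above theirs. The means were 37.4 ± 0.75 (SD, n = 3) in the Fkh-labelled arrays and 94.0 ± 18.7 (SD, n = 2) in the w1118 arrays, a ratio of 0.398.

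**Figure D1:**
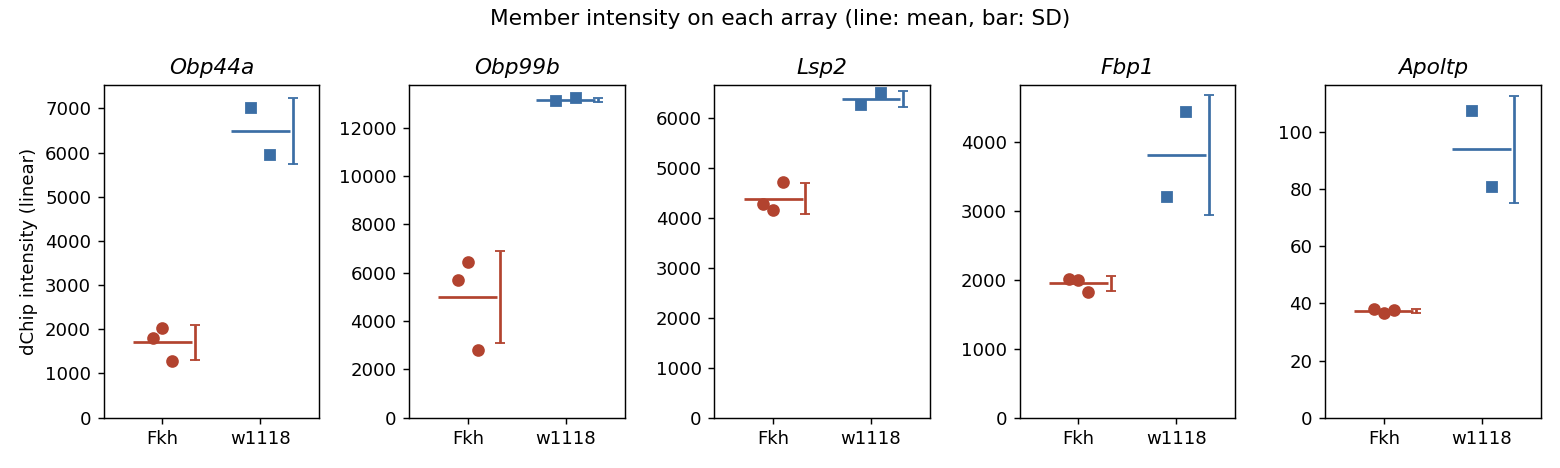
Intensity (linear, arbitrary units, each axis from 0) of the 5 genes on each of the 3 Fkh-labelled arrays (circles) and the 2 w1118 arrays (squares), with the mean as a line and the SD as a bar. In all 5 panels the Fkh-labelled arrays lie below both w1118 arrays, at 1275 to 2029.9 in the Fkh-labelled arrays against 5954 and 7013 in the w1118 arrays for Obp44a, and at 4145 to 4723 in the Fkh-labelled arrays against 6262 and 6487 in the w1118 arrays for Lsp2.

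All 5 genes passed the filter on low values, and for 5 of 5 the Fkh-labelled arrays lay below both w1118 arrays. The same holds for 32.8% of all 8298 genes that passed, and since the genes were chosen with this contrast known, nothing is read from their count. Differences between groups were taken on log2(intensity + 16), Fkh-labelled minus w1118. They were -1.94 for Obp44a, -1.49 for Obp99b, -1.03 for Apoltp, -0.94 for Fbp1 and -0.54 for Lsp2, with a median of -1.03. The median over all genes was -0.01. Of all genes, 3.02% had a larger negative difference than Obp44a, 5.18% than Obp99b, 9.41% than Apoltp, 11.0% than Fbp1 and 21.8% than Lsp2.

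The 5 genes did not differ by one common factor, nor did they move alike among the Fkh-labelled arrays. Array 3 against the mean of arrays 1 and 2 was at -1.10 for Obp99b, -0.58 for Obp44a and -0.14 for Fbp1, at 0.0058 for Apoltp and at 0.17 for Lsp2, on the log2 scale. With array 3 alone the difference from the w1118 arrays was therefore -2.33 for Obp44a and -2.22 for Obp99b but -0.43 for Lsp2. Without array 3, that of Obp99b was -1.12. Between the w1118 arrays, Fbp1 was 0.47 higher and Apoltp 0.35 lower in array 2 than in array 1. Without w1118 array 1 the difference of Fbp1 was -1.18 and without array 2 -0.71, and those of Apoltp were -0.86 and -1.21. Apoltp also depended on the constant added to each intensity, with -1.29 for a constant of 1 and -0.63 for 64, and Lsp2 on the scaling, with -0.72 after quantile normalization.

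**Figure D2:**
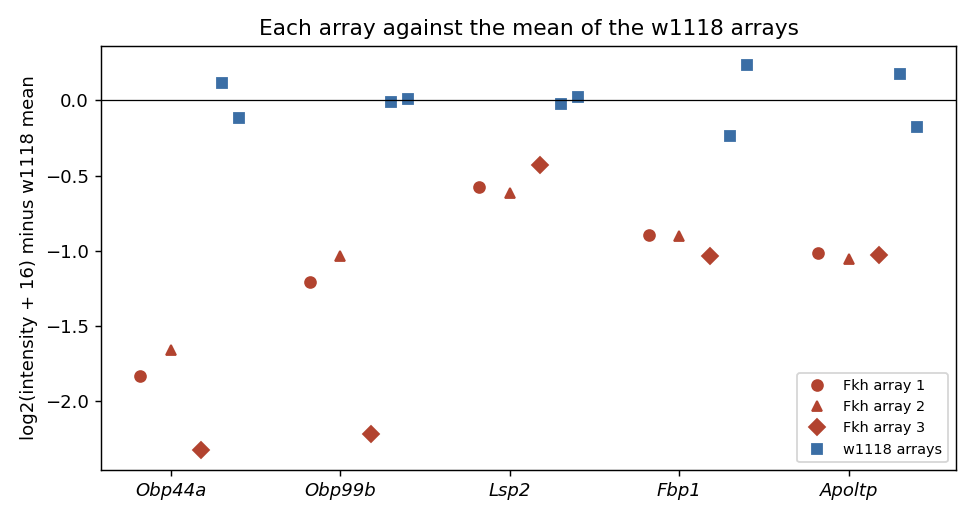
Each array's log2(intensity + 16) minus the mean of the w1118 arrays, with Fkh-labelled arrays 1, 2 and 3 as circle, triangle and diamond and the w1118 arrays as squares. Array 3 lies lowest for Obp44a (-2.33) and Obp99b (-2.22) and highest for Lsp2 (-0.43), while the 3 arrays nearly coincide for Apoltp.

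The 5 patterns were compared as the Euclidean distance between log2 values over the 5 arrays, each gene centred on its own mean. Values were not scaled, so the distance follows in large part the size of the group difference, by which the genes were chosen. Obp44a and Obp99b lay 0.68 apart. Lsp2, Fbp1 and Apoltp lay 0.59 to 0.62 from each other, and 1.04 to 1.67 from Obp44a and Obp99b. Among all other genes, the 3 nearest to Obp44a were CG17746 at 0.092, CG1146 at 0.14 and Jhbp2, which encodes a juvenile hormone binding protein, at 0.20. The 3 nearest to Obp99b were CG18528 at 0.13, Lerp, the lysosomal enzyme receptor, at 0.16 and Pli at 0.19. CG10376, aln and Neurl4 were nearest to Lsp2 at 0.064 to 0.074, and SIFa, aus and Charon to Fbp1 at 0.11 to 0.16. Spn42Dd, a serine protease inhibitor, CG4115 and Tsp96F were nearest to Apoltp at 0.044 to 0.086. These distances are over 5 arrays of 2 groups and in large part restate the sizes of the group differences, so nothing is read from them.

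Genes listed as other secreted proteins of the fat body went both ways. Whether each product of the list is secreted, those of Fbp2 and Mtp included, was not checked. Of 16 tested genes on this list, 3 rose and 2 fell (limma, Benjamini-Hochberg adjusted p under 0.05 over all 11261 probe sets tested), which is 18.8% and 12.5% of them, beside 21.5% and 19.3% of all genes. Over all probe sets tested, 20.7% rose and 18.7% fell. A gene is said to rise or fall only where its Fkh-labelled arrays passed this threshold. The median log2 difference of the list was -0.08. The list leaves out the 5 genes above, and its members Lsp1alpha, Lsp1beta, Lsp1gamma, to, Tep2 and Ilp6 were not analysed here.

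The growth factor gene Idgf1, which encodes a secreted chitinase-like protein, had 1535, 1552 and 2105 in the Fkh-labelled arrays, against 308 and 267 in the w1118 arrays, and rose by 2.51 (SE 0.20, limma adjusted p = 0.000151). Tsf1, which encodes the iron carrier transferrin, had 4451, 4468 and 4612 in the Fkh-labelled arrays, against 943 and 1320.2 in the w1118 arrays, and rose by 2.00 (SE 0.18, limma adjusted p = 0.000315). Both groups of values were far apart. Idgf4, of the same family as Idgf1, fell by 1.21 to a mean of 877 in the Fkh-labelled arrays, against 2058 in the w1118 arrays (limma adjusted p = 0.0014). GNBP3, a recognition protein for fungal glucans, fell by 1.23, and the thioester protein gene Tep4 rose by 0.69. The call of Tep4 was lost without w1118 array 1 (adjusted p = 0.070), without w1118 array 2 (0.056) and with Fkh-labelled array 3 alone (0.067), and that of GNBP3 without w1118 array 1 (0.077).

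Some genes of the same list were not called. The gene apolpp, which encodes the apolipoprotein of lipophorin, had 2615, 2863 and 2399 in the Fkh-labelled arrays, against 3079 and 2840.3 in the w1118 arrays, so that the groups overlapped (log2 difference -0.17, SE 0.16, limma adjusted p = 0.41). NLaz, a lipocalin of the haemolymph, had 8748, 9285 and 10404 in the Fkh-labelled arrays, against 9725 and 8636 in the w1118 arrays (log2 difference 0.04, limma adjusted p = 0.84). Fbp2, a fat body protein related to alcohol dehydrogenase, had 1654, 1947 and 1360.0 in the Fkh-labelled arrays, against 2090.0 and 3090.0 in the w1118 arrays. Its arrays did not overlap, but the difference of -0.63 missed the threshold (SE 0.24, limma adjusted p = 0.075). These 3 genes were named after their values were seen.

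Among fat body regulators and genes of fat storage, 6 of 12 tested fell (50%) and 2 rose (16.7%), beside 19.3% and 21.5% of all genes, with a median log2 difference of -0.50. Slimfast (slif), an amino acid transporter, rose by 1.94 (SE 0.19) and Pepck1, a key enzyme of gluconeogenesis, by 1.27 (SE 0.19), with limma adjusted p = 0.000412 and 0.0023. Fdh, formaldehyde dehydrogenase, had a mean of 1498 in the Fkh-labelled arrays and 3111 in the w1118 arrays and fell by 1.05, and regucalcin, a calcium-binding protein gene, fell by 0.91 (limma adjusted p = 0.0031 and 0.0047). These 4 calls held whichever array was left out. The other 4 falls, named after their values were seen, were those of the perilipin genes Lsd-1 (-0.84) and Lsd-2 (-0.78), the nuclear receptor gene Hnf4 (-0.67) and srp (-0.59), which encodes a GATA factor of fat body and haemocytes. They were less stable: the list had 3 falls when either Fkh-labelled array 1 or array 2 was left out, 3 without w1118 array 1, 2 without w1118 array 2, and 4 with Fkh-labelled array 3 alone.

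Genes of lipoprotein and lipid uptake gave 2 falls (25%) and 0 rises among 8 tested, beside 19.3% and 21.5% of all genes. At an unadjusted p under 0.05 (limma), 3 fell and 0 rose. No share of all genes at that threshold is given, here or for the lists below. With the probe set of highest variance for each gene 1 rose, the dynamin gene shi, which has a probe set at 0.82 (limma adjusted p = 0.0094). The lipophorin receptor gene LpR2 had 30.2, 33.8 and 44.1 in the Fkh-labelled arrays, against 113 and 109 in the w1118 arrays, and fell by 1.30 (SE 0.17, limma adjusted p = 0.0015). Npc2b, of a sterol-binding family, fell by 1.12 (SE 0.15, limma adjusted p = 0.0016). Without Fkh-labelled array 3, 4 genes of the list fell. The median log2 difference was -0.48.

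**Figure D3:**
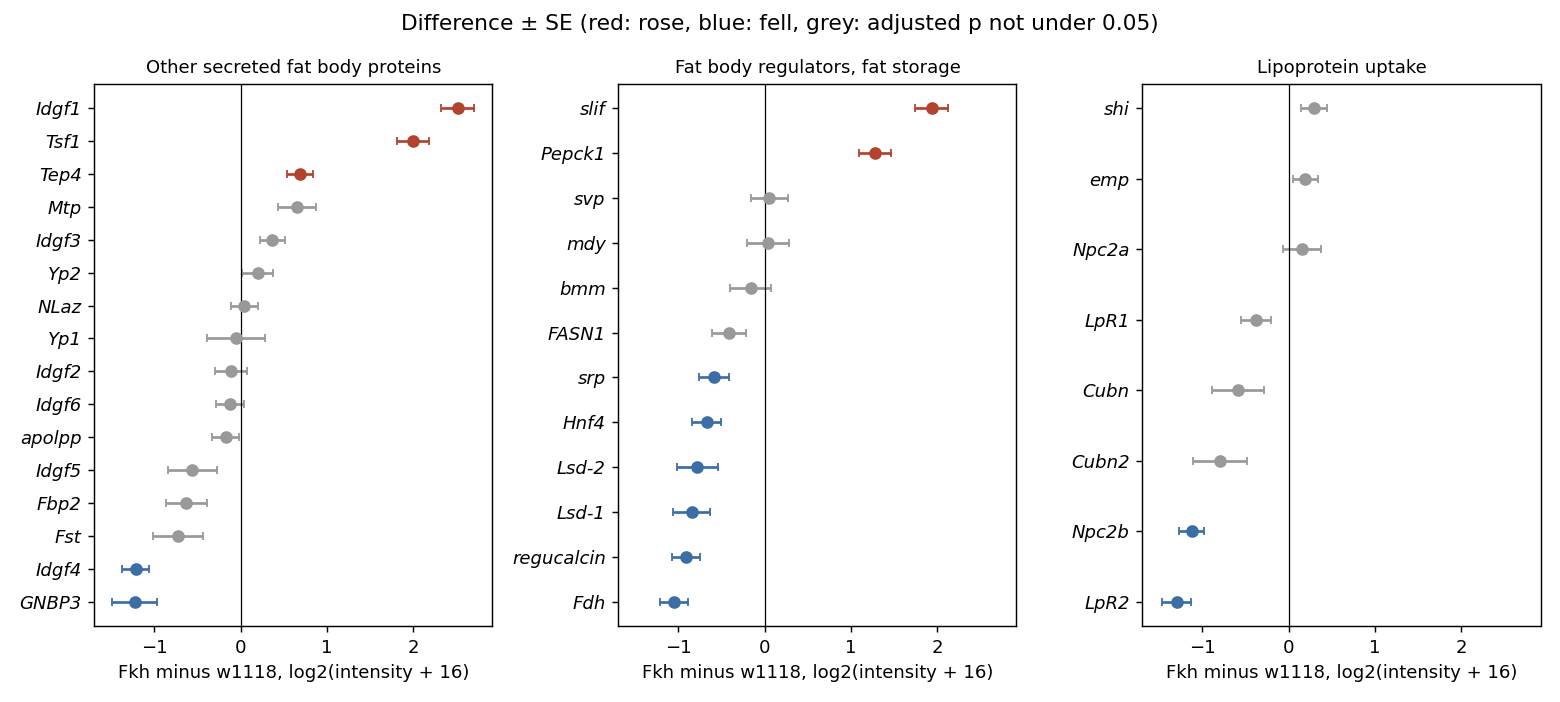
Log2(intensity + 16) difference, Fkh-labelled minus w1118, with its standard error, of the tested genes of 3 lists that leave out Obp44a, Obp99b, Lsp2, Fbp1 and Apoltp; red points rose, blue points fell and grey points did not pass the threshold. The secreted proteins spread from -1.23 (GNBP3) to 2.51 (Idgf1), with apolpp and NLaz near 0.

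Of the other odorant-binding protein genes some were higher and some lower in the Fkh-labelled arrays. Of 46 on the array, 18 passed the filter, of which 4 rose (22.2%) and 2 fell (11.1%), beside 21.5% and 19.3% of all genes, with a median log2 difference of -0.13. Without a filter 5 rose and 4 fell, and with the filter at the 60th percentile 2 rose and 1 fell. Obp99d lies 2 genes from Obp99b in the RefSeq gene order. It had 1674, 1652 and 1012 in the Fkh-labelled arrays, against 13233 and 11704 in the w1118 arrays, and fell by 3.13 (SE 0.25, limma adjusted p = 0.000178). Array 3 was its lowest, as for Obp44a and Obp99b. Obp56d went the other way, with 1993, 2122 and 2257 in the Fkh-labelled arrays, against 170 and 109 in the w1118 arrays, and rose by 3.81 (SE 0.21, limma adjusted p = 3.23e-05). Obp83ef fell by 1.38 and lush rose by 1.32 at low intensities, with means of 27.6 and 74.1 in the Fkh-labelled arrays against 96.7 and 20.9 in the w1118 arrays. The remaining rises, named after their values were seen, were Obp8a by 1.25 and Obp83b by 0.64. The call of Obp83b was lost without Fkh-labelled array 1 (adjusted p = 0.055) and without w1118 array 2 (0.098), and it was under the filter without Fkh-labelled array 2. With Fkh-labelled array 3 alone, both Obp83b and lush were under the filter. Obp83ef, lush and Obp83b passed the filter only through the group where they were brighter, so that their calls say little beyond that.

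**Figure D4:**
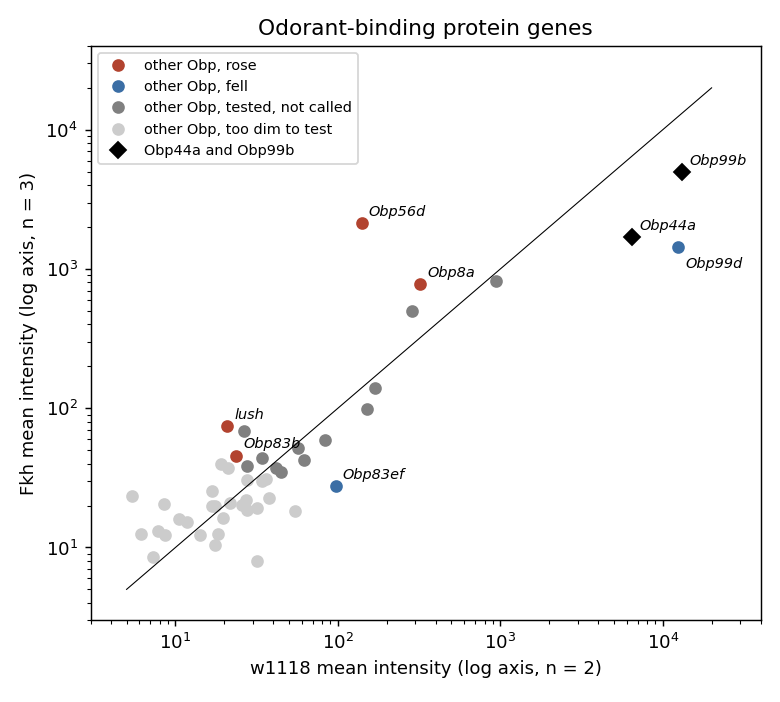
Mean intensity in the Fkh-labelled arrays (vertical, log axis, n = 3) against that in the w1118 arrays (horizontal, log axis, n = 2) for 46 other odorant-binding protein genes (circles) and for Obp44a and Obp99b (black diamonds). Obp44a, Obp99b and Obp99d lie below the line of equal means at its bright end, Obp56d lies above it, and most of the family is dim in both groups.

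In RNA of a dissected organ, fewer cells of a type and less RNA per cell cannot be told apart, and neither can RNA made by gland cells and RNA of tissue carried over with them. Marker genes of the tissues that could be carried over were therefore measured beside the 5 genes. The summed intensity of the other secreted fat body proteins, 17 genes, was 39772 to 41187 in the Fkh-labelled arrays and 33516 to 35849 in the w1118 arrays. Idgf3 (15318 on average in the Fkh-labelled arrays, 11877 in the w1118 arrays), Tsf1 and Idgf1 carried this gap. Without them, the other 14 genes summed to 18338 to 19614 in the Fkh-labelled arrays and 20444 to 22328 in the w1118 arrays. The genes left out were picked from these values for being higher in the Fkh-labelled arrays. A lower rest is therefore in part built in, and nothing is read from it. The sum of the 14 fat body regulators and storage genes overlapped between the groups, at 25276 to 28253 in the Fkh-labelled arrays and 27037 to 27342 in the w1118 arrays. Bright genes in it went opposite ways. Regucalcin averaged 6207 in the Fkh-labelled arrays and 11647 in the w1118 arrays, against 8006 and 3293 for Pepck1 and 4398 and 1144 for slif. Levels ranged widely within both fat body lists. NLaz averaged 9479 in the Fkh-labelled arrays and 9180 in the w1118 arrays, and the yolk protein genes Yp1 and Yp2 passed the filter. The yolk protein gene Yp3 and the hormone receptor gene AkhR were under it, with means of 24.5 and 22.6 in the Fkh-labelled arrays, against 25.6 and 21.0 in the w1118 arrays.

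Of 16 haemocyte genes 8 had a mean under 100 in both groups. The filter kept 11, of which 3 fell (27.3%, beside 19.3% of all genes) and 0 rose (beside 21.5%). At an unadjusted p under 0.05 (limma), 0 rose as well. The summed intensity of the 16 was 2797 to 3351 in the Fkh-labelled arrays and 4963 to 5067 in the w1118 arrays. Within this list, crq (means of 1305 in the Fkh-labelled arrays and 2285 in the w1118 arrays) and NimC4 (222 and 913) differed most in intensity. The falls were those of the phagocytosis genes NimC4 (-1.97), NimC1 (-0.92) and crq (-0.84), and 1 of them was called without w1118 array 1, and 2 without Fkh-labelled array 2, without w1118 array 2 or with Fkh-labelled array 3 alone. The defining genes Hml, eater, lz and PPO1 were under the filter, and eater had 8.9, 4.4 and 23.8 in the Fkh-labelled arrays, against 14.5 and 21.9 in the w1118 arrays. Of the neuron and glia genes, 3 of 7 tested fell (42.9%) and 1 rose (14.3%), beside 19.3% and 21.5% of all genes, led by moody, a receptor gene of the glial blood-brain barrier, which fell by 3.17, while the arrays of the glial factor gene repo overlapped (log2 difference 0.0034, SE 0.32, limma adjusted p = 0.99). Of these 3 falls, 2 were called without w1118 array 1 and 1 with Fkh-labelled array 3 alone. The neuronal genes elav and nSyb were the other falls (-1.35 and -0.76). The rise, of the GABA receptor gene Rdl (0.58), was not called without Fkh-labelled array 1, w1118 array 1 or w1118 array 2, or with Fkh-labelled array 3 alone.

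Among epidermis and trachea genes 4 of 8 tested fell (50%, beside 19.3% of all genes) and 0 rose (beside 21.5%). At an unadjusted p under 0.05 (limma), 1 rose. The falls were verm (-1.60) and serp (-0.80), which encode chitin deacetylases, Ddc, dopa decarboxylase (-2.56), and the chitinase gene Cht2 (-0.56). Of these, 2 were called without Fkh-labelled array 2, without w1118 array 2 and with Fkh-labelled array 3 alone. The summed intensities of this list were 3511 to 3971 in the Fkh-labelled arrays and 6403 to 7838 in the w1118 arrays. Within it Ddc differed most in intensity, with means of 335 in the Fkh-labelled arrays and 1878 in the w1118 arrays. The summed intensities of the neuron and glia list were 984 to 1262 in the Fkh-labelled arrays and 3177 to 3879 in the w1118 arrays. Without moody the other 8 genes of that list overlapped, at 745 to 1021 in the Fkh-labelled arrays and 981 to 993 in the w1118 arrays. Muscle genes summed to 954 to 1101 in the Fkh-labelled arrays and 983 to 1071 in the w1118 arrays, and the myosin light chain gene Mlc2 averaged 9.8 in the Fkh-labelled arrays and 14.2 in the w1118 arrays. Of 7 muscle genes tested 1 fell (14.3%, beside 19.3% of all genes) and 0 rose (beside 21.5%). The fall was that of the paramyosin gene Prm, with means of 58.9 in the Fkh-labelled arrays and 134 in the w1118 arrays. These are values of its brightest probe set, and another Prm probe set was not called (log2 difference -0.44, SE 0.28, limma adjusted p = 0.25). Prm was not called without w1118 array 1 or with Fkh-labelled array 3 alone. Gut and tubule genes summed to 1179 to 2195 in the Fkh-labelled arrays and 739 to 877 in the w1118 arrays. Of 4 tested 1 rose (25%, beside 21.5% of all genes), the potassium channel gene Irk2 by 1.98. Falls numbered 0, beside 19.3% of all genes (0 also at an unadjusted p under 0.05, limma, but 2 adjusted falls without Fkh-labelled array 3). Without Irk2 the other 11 genes summed to 347 to 461 in the Fkh-labelled arrays and 485 to 619 in the w1118 arrays. The salivary gland genes summed to 98241 to 100355 in the Fkh-labelled arrays and 55697 to 59269 in the w1118 arrays. Of 19 tested, 11 rose (57.9%) and 2 fell (10.5%), beside 21.5% and 19.3% of all genes. What part any of these tissues had in the values of the 5 genes was not tested. NimC1 and nSyb passed the filter only through the w1118 arrays, and ng1 of the salivary gland list only through the Fkh-labelled arrays. The Eig71E genes above and ng1, Idgf3, Yp1, Yp2, Yp3, AkhR, repo, Mlc2 and the haemocyte genes under the filter were named after their values were seen.

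**Figure D5:**
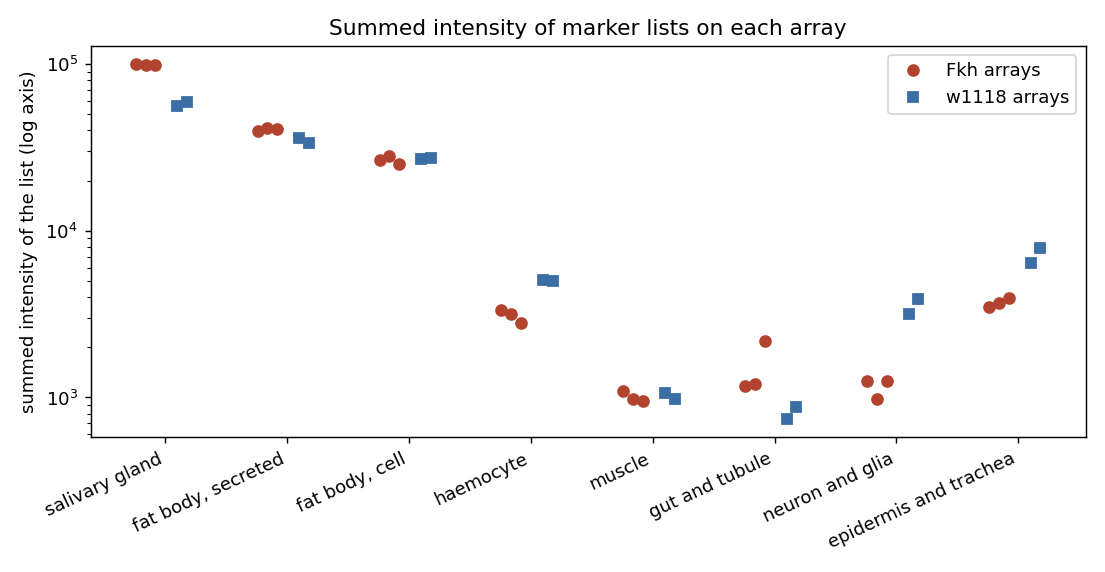
Summed intensity (log axis) of each marker list on the 3 Fkh-labelled arrays (circles) and the 2 w1118 arrays (squares), with 1 probe set for each gene. The sums of haemocyte, neuron and glia, and epidermis and trachea genes lie lower in the Fkh-labelled arrays, those of salivary gland, gut and tubule, and secreted fat body genes higher, and those of fat body regulators and of muscle overlap. A sum follows its brightest genes. The gut sum is lower in the Fkh-labelled arrays without Irk2, the secreted fat body sum without Idgf3, Tsf1 and Idgf1, and the neuron and glia sums overlap without moody. The genes left out were picked from these values, and no gene was left out of the other lists.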

How the data were processed

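Total RNA was labelled as biotin cRNA and hybridised to 1-colour Affymetrix arrays, per the labels' protocols. For each probe set the deposited table gives 1 linear intensity. The authors used dChip for these values and set every array to a baseline array, of median intensity 134, as the design text of the series states. Version and model of dChip: not given in the sources used here. The members and lists were chosen with earlier results of these data known. The 183 control probe sets were left out, and 13647 of the other 18769 have 1 gene symbol. Values were taken as log2(intensity + 16), which understates differences of dim probe sets, and probe sets above the 40th percentile of the mean, 5.62, were kept (11261). The comparison used limma 3.58.1 (lmFit, then eBayes, in R 4.3.3), two-sided, with 3 residual degrees of freedom, and p-values of all probe sets kept were adjusted by Benjamini-Hochberg. A gene was represented by its brightest kept probe set. Probe sets whose name holds _s_ (Idgf3, Idgf4, regucalcin, slif, Npc2b, crq and Prm) can bind several transcripts. The number of arrays limits the precision, with 3 against 2. Named genes are the 5 members, fkh, from each list the called genes of smallest p, at most 4, and the 3 genes nearest to each member. Of those of the salivary gland list, ng4 is given by itself, and the others enter the text in the counts and the sum. The fit was tested on simulated data. Alternatives changed the constant, filter, scaling, variance model, probe set per gene, replicate block and arrays. Symbols were matched to RefSeq (assembly Release 6 plus ISO1 MT), and no coordinates or sequences are given. Figures were drawn with matplotlib 3.10.9.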

Additional observations from a re-analysis of the deposited data

How the results depend on the processing

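All 5 genes were lower in the Fkh-labelled arrays under each of 13 other settings of the processing, except that Apoltp was under the stricter filter and gave no value there, and with Fkh-labelled array 3 alone, a setting chosen after the data were seen. Their log2 differences ranged from -2.33 to -1.75 for Obp44a, -2.22 to -1.12 for Obp99b, -1.29 to -0.63 for Apoltp, -1.18 to -0.71 for Fbp1 and -0.72 to -0.43 for Lsp2. Over all probe sets 2328 rose and 2104 fell. With an array left out in turn 1598 to 2581 rose and 1222 to 2309 fell, with fewest falls without w1118 array 1 (1222) and w1118 array 2 (1301), and with Fkh-labelled array 3 alone 1337 rose and 1397 fell. For the other secreted fat body proteins, 5 rose with a constant of 64 and 5 with eBayes with trend and robust, against 3, and leaving out an array gave 2 to 4 rises and 1 to 3 falls. The same replicate number marks no shared animal or day in the labels, and deviations of same-numbered arrays correlated at 0.077 and -0.112. With the replicate block 2350 probe sets rose and 2019 fell, and the list of secreted proteins had 4 rises and 2 falls. Fkh-labelled array 3 is the only array of its replicate number, so the block takes it up fully. The log2 differences with the block are therefore those without array 3. Of fkh and 31 called genes of the lists, those of smallest p, 0 changed direction where they were tested. While still tested, 9 lost their call under at least 1 alternative. The probe sets of fkh, LpR2, Obp83ef, lush, NimC1 and nSyb were under the stricter filter. That of lush was also under the filter with Fkh-labelled array 3 alone. Such cases gave no value and are not counted as lost calls. The genes named after their values were seen are not among these 32. The genes nearest to each member were not run under alternatives. Signals near or under the 40th percentile, as for Apoltp and most odorant-binding protein genes, limit what can be seen.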

Other observations

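Genes beside the 5 on the chromosome were looked at after the data were seen, as the genes up to 3 places away in the RefSeq gene order that have a probe set of their own. Of 15 tested, 7 fell (46.7%, beside 19.3% of all genes) and 2 rose (beside 21.5% of all genes). Genes in 1 neighbourhood are not independent. Next to Obp44a, Lpin, which encodes the lipid phosphatase lipin, had 325, 298 and 145 in the Fkh-labelled arrays, against 3036 and 2172 in the w1118 arrays, and fell by 3.32 (SE 0.35, limma adjusted p = 0.000553). Next to Obp99b on the side away from Obp99d, CG15506 had 194, 192 and 155 in the Fkh-labelled arrays, against 2184 and 2047 in the w1118 arrays, and fell by 3.45 (SE 0.16, limma adjusted p = 2.17e-05). Dup99B, between Obp99b and Obp99d, was dim and its arrays overlapped (log2 difference -0.26, SE 0.21, limma adjusted p = 0.36). Lsp2 stands beside DEF8, which fell by 1.15, and Apoltp beside CG33299, which fell by 1.07 and was not called with Fkh-labelled array 3 alone (adjusted p = 0.057). Fbp1 stands beside CG8100, at 0.18 (adjusted p = 0.45), and Sox21a, which rose by 0.90 and was not called without w1118 array 2 (adjusted p = 0.074). The other 4 calls, of kermit, GlcAT-S and Trx2 beside that of Obp99d, include 3 that were each lost without at least 1 array.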
